A study of Mus musculus with 8 samples.

Results

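The complement genes of the mouse kidney were followed after ischemia-reperfusion (I/R), that is, after its blood flow had been stopped and then restored. They were taken by symbol from a table of counts per gene, and all 9 listed genes (C1ra, C1s1, C4b, C3, Cfb, Serping1, Cfi, Cd55 and C5ar1) were among its 25239 genes. All 9 passed the filter on low counts. The series holds 8 kidney libraries, 4 of a myeloid FoxO1 knockout (knockout 1 to 4) and 4 with the genotype label WT (control 1 to 4), every one of them after I/R. The knockout mice carried Lyz2-CreERT2, a tamoxifen-dependent Cre recombinase driven by the lysozyme gene of myeloid cells, together with FoxO1flox/flox alleles. They were 8 to 10 weeks old when they received tamoxifen (75 mg per kg daily for 5 days). The protocol text is the same for the controls, and whether they received tamoxifen or carried Cre is not given in the sources used here. In all libraries the mice had lost the right kidney, and the left renal vessels had been clamped for 35 minutes. No uninjured kidney was analysed here, and the time from reperfusion to collection is not given in the sources used here.

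Complement is a cascade of blood proteins that marks targets and calls in leukocytes. In the classical pathway the proteases C1r and C1s, held by C1q, cleave C4 and C2, and the products cleave C3, the protein on which all routes meet. Factor B, encoded by Cfb, builds the C3-cleaving enzyme of the alternative pathway, which amplifies the reaction. Liver makes most of the circulating proteins, while tubule cells and macrophages of the kidney also make some of them, and complement activation is a known feature of I/R injury in this organ.

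RefSeq promoter windows (GRCm38.p6, 250 bases before to 50 after the annotated start) were on hand for 5 of the 9 genes, C3, C1ra, C1s1, Cd55 and C5ar1. Those of the neighbouring genes C1s1 and C1ra, of C3 and of C5ar1 are shown. These genes encode 2 proteases of 1 complex, the central component and the receptor. Of these, C1s1 was called higher in the knockout, C5ar1 was called lower, and C1ra and C3 were not called. The genes were not tested against each other. C3 (log2 fold change 1.16, SE 0.37) lay close to C1s1 (1.31, SE 0.37). Each window is written 5′ to 3′ along its gene, and capitals mark the matches to the motifs named after them. For C1s1 the upstream one of 2 overlapping windows is shown.
C1s1, chr6:124542310-124542609, minus strand: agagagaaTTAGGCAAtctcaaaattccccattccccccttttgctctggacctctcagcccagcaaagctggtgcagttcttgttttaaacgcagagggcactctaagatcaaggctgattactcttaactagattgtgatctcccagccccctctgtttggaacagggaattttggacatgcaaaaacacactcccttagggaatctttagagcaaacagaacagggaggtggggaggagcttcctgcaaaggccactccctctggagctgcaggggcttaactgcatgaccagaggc
C1ra, chr6:124512371-124512670, plus strand: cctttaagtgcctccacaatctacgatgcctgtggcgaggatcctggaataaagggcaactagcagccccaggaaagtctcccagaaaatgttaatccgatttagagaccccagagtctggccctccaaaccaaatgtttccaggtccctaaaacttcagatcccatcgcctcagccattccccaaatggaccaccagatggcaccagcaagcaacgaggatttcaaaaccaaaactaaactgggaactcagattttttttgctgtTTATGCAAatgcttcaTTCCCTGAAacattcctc
C3, chr17:57228087-57228386, minus strand: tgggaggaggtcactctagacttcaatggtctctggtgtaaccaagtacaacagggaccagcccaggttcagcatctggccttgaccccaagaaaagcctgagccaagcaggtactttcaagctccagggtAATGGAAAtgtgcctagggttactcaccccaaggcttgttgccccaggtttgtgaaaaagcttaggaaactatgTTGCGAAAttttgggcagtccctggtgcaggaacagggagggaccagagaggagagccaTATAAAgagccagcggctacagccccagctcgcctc
C5ar1, chr7:16259289-16259588, minus strand: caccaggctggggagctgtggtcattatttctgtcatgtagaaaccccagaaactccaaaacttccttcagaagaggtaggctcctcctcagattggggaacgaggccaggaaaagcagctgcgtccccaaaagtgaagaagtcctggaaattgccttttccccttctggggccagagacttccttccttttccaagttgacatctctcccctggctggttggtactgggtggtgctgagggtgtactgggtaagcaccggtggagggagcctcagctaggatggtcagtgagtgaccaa

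These windows were searched on both strands for motifs of FoxO (GTAAACA), STAT (TTCNNNGAA), C/EBP (TTGCNNAA), IRF (AANNGAAA) and NF-kB (the consensus by that name) and for TATAAA. The FoxO letters were in none of the windows of the 5 genes, and 3.65% of 32817 RefSeq windows of the same length hold them. The C/EBP letters occurred in the windows of C3, C1ra and the shown window of C1s1, and in 10.8% of all windows. A STAT match lay in the C1ra window and in 8.29% of all windows, and TATAAA in the C3 window and in 13.6% of all. The IRF letters were in the C3 window and in 23.9% of all. None of the 5 genes had an NF-kB match, against 4.50% of all windows, and the windows of Cd55 and C5ar1 held none of the 6 motifs. None of the matches within a window overlapped. The TATAAA of C3 began at base 15 after the annotated start, and the C/EBP and STAT matches of C1ra at bases 17 and 33 after it. The other matches lay before the start. A match is a string of letters and not a measured binding site.

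The 4 knockout libraries held 29044405 to 34738914 counts and the 4 controls 32627652 to 35530421. Foxo1, the targeted gene, stood at 39.3 to 42.9 CPM (counts per 1e6 counts, scaled with TMM factors) in the knockouts and at 33.0 to 34.5 CPM in the controls. Kidney tissue holds many other cells that express Foxo1, so this level does not check the deletion in myeloid cells. Per the labels' protocols the RNA was made after collagenase digestion of the tissue, and its effect on the levels was not tested. Lyz2 had 13 counts in knockout 3 and 858 to 1302 in the other knockouts, against 81 counts in control 1 and 844 to 1610 in the other controls. The defining tubule markers were present, with summed levels of 10700 to 12200 CPM in the knockouts and 3500 to 6750 CPM in the controls. Across all genes edgeR, at a Benjamini-Hochberg adjusted p under 0.05, called 12.7% of the 15000 genes tested, 6.45% higher and 6.28% lower in the knockout. Separate animals per library are not stated in the labels, so the p-values rest on a spread that may be partly technical.

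Between the knockout and control kidneys the complement genes moved in different directions. Serping1 and C1s1 rose in the knockout by 2.85-fold and 2.48-fold, C5ar1 fell 2.11-fold, and the other 6 genes did not pass the threshold. C3, the most changed of those 6, stood 2.23-fold higher in the knockout on average, with overlapping groups. Thus 2 of 9 genes were called higher and 1 of 9 lower, against 6.45% and 6.28% of all genes. Since 1 gene of 9 is 11.1%, the counts are read as statements on the single genes and not on the group. The median log2 fold change of the 9 genes was -0.18, and that of all genes tested was -0.01. Injured tubule markers separated the same groups, with summed levels of 6380 to 7260 CPM in the knockouts and 17100 to 32300 CPM in the controls. So did immediate early genes, which can respond to tissue handling, with 585 to 703 CPM in the knockouts and 1010 to 1240 CPM in the controls and 9 of 12 lower in the knockout. The part of either in the complement levels was not tested. In tissue RNA, fewer cells of a type and less RNA per cell cannot be told apart.

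**Figure D1:**
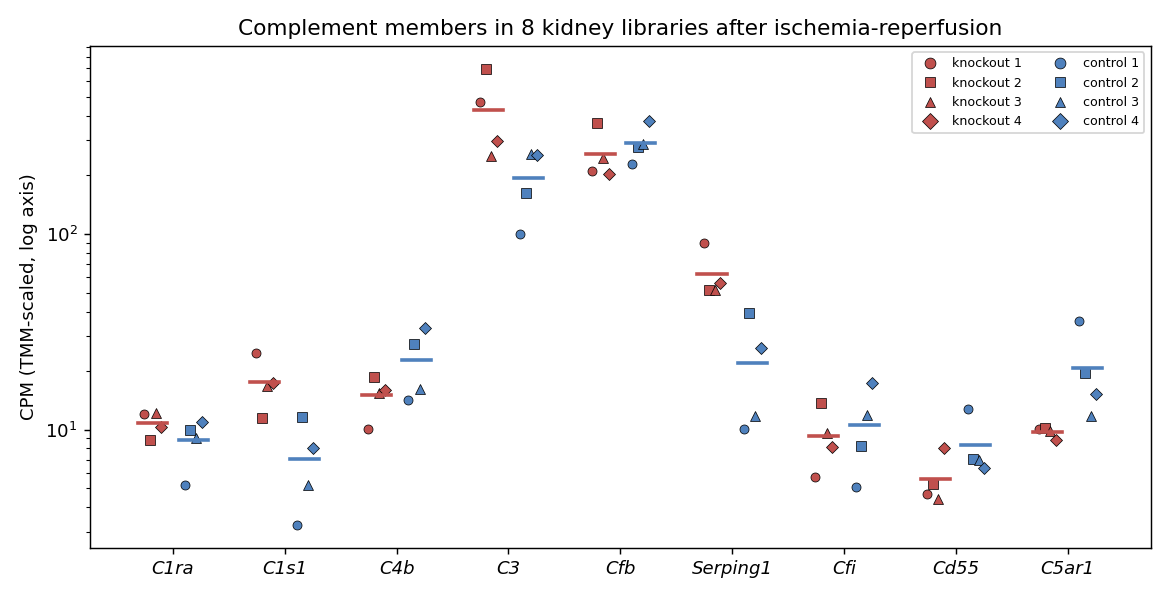
CPM (TMM-scaled, log axis) of the 9 complement genes, with 1 point per library (knockout in red, left; control in blue, right) and a line at the group mean. The groups are separate for Serping1 and C5ar1 and overlap for the other 7 genes.

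Of the 2 proteases that start the classical pathway, C1s1, which encodes the C1s chain that cleaves C4 and C2, was the one that passed. It stood at 24.5, 11.5, 16.6 and 17.3 CPM in knockouts 1 to 4, against 3.26, 11.6, 5.22 and 8.07 CPM in controls 1 to 4. Control 2 matched the lowest knockout, so that the groups met there and were otherwise separate. Mean levels were 17.5 ± 5.33 CPM and 7.04 ± 3.63 CPM (SD, n = 4 each), which gave a log2 fold change of 1.31 (SE 0.37, edgeR FDR-adjusted p = 0.0422). The call was kept without control 2 (edgeR FDR-adjusted p = 0.0149) and lost when any other single library was left out, with adjusted p from 0.0506 without knockout 2 to 0.109 without control 3. Its log2 fold change in those 8 fits ran from 1.07 to 1.66.

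C1ra encodes the C1r chain, which activates C1s. Its levels were 12, 8.80, 12.2 and 10.3 CPM in knockouts 1 to 4, against 5.23, 9.98, 9.07 and 10.9 CPM in controls 1 to 4. The groups overlapped, and control 1 was the lowest library. The log2 fold change was 0.30 (SE 0.23, edgeR FDR-adjusted p = 0.428). Expressed per length, as TPM, in which counts are divided by the deposited gene length before scaling, the ratio of C1s1 to C1ra was 1.89, 1.21, 1.26 and 1.56 in knockouts 1 to 4, against 0.577, 1.08, 0.533 and 0.688 in controls 1 to 4. In every knockout library the C1s1 level thus exceeded the C1ra level, which among controls was seen in control 2. Reads of these genes could be shared with their copies C1rb and C1s2, which had at most 8 and 16 counts in any library.

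C4b encodes C4, the component that C1s cleaves. Its levels were 10.1, 18.5, 15.4 and 16.0 CPM in knockouts 1 to 4, against 14.2, 27.3, 16.1 and 33.1 CPM in controls 1 to 4. Controls 2 and 4 lay above all other libraries, while controls 1 and 3 lay within the knockout range. The log2 fold change was -0.60 (SE 0.28, edgeR FDR-adjusted p = 0.197). The near-identical copy C4a had 14 to 65 counts per library, against 281 to 1022 for C4b, and reads may be split between the copies.

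C3 was, with Cfb, the most abundant of the 9 genes. It had 471, 695, 249 and 298 CPM in knockouts 1 to 4, against 99.2, 161, 256 and 252 CPM in controls 1 to 4. Knockouts 1 and 2 were far above every control, and knockout 3 fell below controls 3 and 4. Mean levels were 428 ± 201 CPM and 192 ± 75.7 CPM (SD, n = 4 each), which gave a log2 fold change of 1.16 (SE 0.37, edgeR FDR-adjusted p = 0.0644). DESeq2 gave an adjusted p = 0.00941 for the same contrast, and edgeR with library totals in place of TMM gave 0.0476; over 20 alternatives the adjusted p ran from 0.00941 to 0.258.

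Cfb, which encodes factor B, did not share the higher knockout mean of C3, a difference that itself was not called. It stood at 210, 369, 243 and 201 CPM in knockouts 1 to 4, against 226, 276, 286 and 376 CPM in controls 1 to 4. Both groups covered nearly the same range, and the log2 fold change was -0.19 (SE 0.22, edgeR FDR-adjusted p = 0.618). The per-length ratio of C3 to Cfb was 1.20, 1.01, 0.548 and 0.795 in knockouts 1 to 4, against 0.235, 0.312, 0.477 and 0.358 in controls 1 to 4. This ratio did not overlap between the groups; it was computed after the values were seen and is given without a test. Cfb and C2 are neighbours in the genome and related in sequence, and the log2 fold change of C2 was -0.25 (SE 0.21, edgeR FDR-adjusted p = 0.455).

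**Figure D2:**
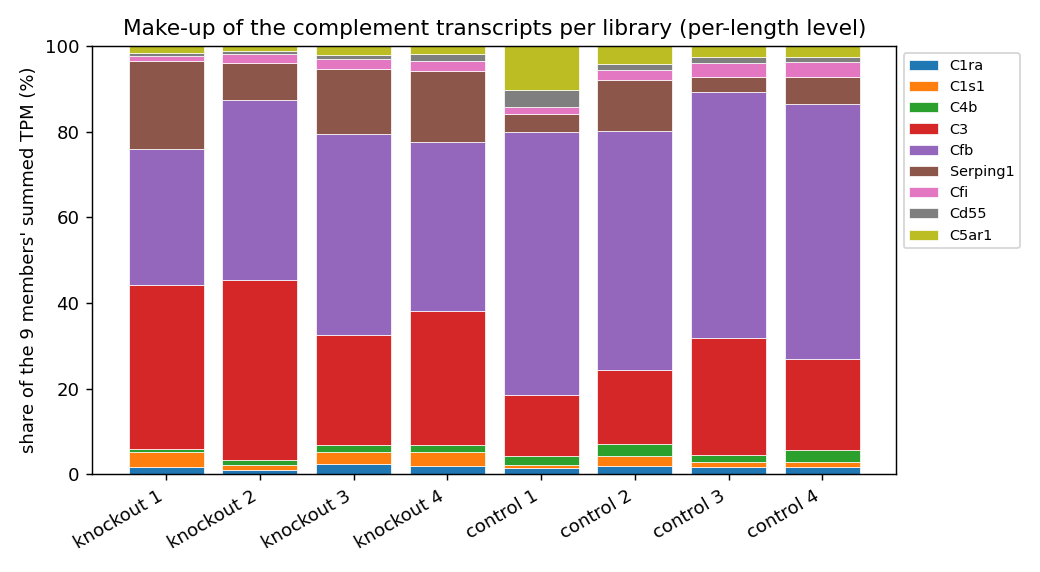
Share (%) of the 9 genes' summed TPM taken by each gene in each library, knockouts on the left and controls on the right. C3 took 25.7% to 42.1% in the knockouts and 14.4% to 27.4% in the controls, and Cfb took 31.8% to 47.0% and 55.7% to 61.3%.

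On the per-length scale the levels of the 9 genes spanned a wide range. In the knockouts the mean level was highest for Cfb (181 ± 54.9 TPM), followed by C3 (159 ± 69.6 TPM) and Serping1 (65.2 ± 12.9 TPM), and the other 6 genes lay between 4.36 TPM (Cd55) and 11.3 TPM (C1s1). In the controls Cfb stood at 199 ± 32.1 TPM, C3 at 69.9 ± 26.6 TPM and Serping1 at 21.7 ± 11.9 TPM, and the other 6 genes lay between 4.31 TPM (C1s1) and 15.6 TPM (C5ar1; SD, n = 4 for each mean). C1s1 thus led these 6 genes in the knockouts and was the lowest of all 9 in the controls, where C5ar1 led the 6. Cfb and C3 did not differ beyond their spread in the knockouts and did in the controls, where the lowest Cfb library (172 TPM) was above the highest C3 library (97.8 TPM). Among the lower 6 genes, neighbours in this order overlapped between libraries in both groups, except that C5ar1 lay above C4b in the knockouts (6.62 to 7.84 TPM, against 3.16 to 6.54 TPM).

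Among the regulators, Serping1 rose. It encodes the C1 inhibitor, a serpin that binds and inactivates C1r and C1s. It had 89.8, 51.3, 51.6 and 55.7 CPM in knockouts 1 to 4, against 10.1, 39.2, 11.7 and 26.2 CPM in controls 1 to 4. Every knockout was above every control, and knockout 1 was the highest library. Mean levels were 62.1 ± 18.6 CPM and 21.8 ± 13.7 CPM (SD, n = 4 each), which gave a log2 fold change of 1.51 (SE 0.40, edgeR FDR-adjusted p = 0.0363). The call was kept without control 2 (edgeR FDR-adjusted p = 0.00890) and lost when any other single library was left out, with adjusted p from 0.0512 without control 1 to 0.0865 without control 3. Its log2 fold change in those 8 fits ran from 1.27 to 1.96. Of the 9 genes, 1 of 9 had groups that were separate and higher in the knockout, against 11.1% of all genes, and 1 of 9, C5ar1, had groups that were separate and lower, against 10.6%.

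Serping1 and C1s1 went together library by library. After centring on each gene's own mean, their log2 CPM profiles over the 8 libraries differed by a root mean square of 0.262, the smallest value among the pairs of the 9 genes. The next pair, Cfb and Cfi, stood at 0.327. The per-length ratio of Serping1 to C1s1 was 5.10 to 7.30 in the knockouts and 3.66 to 5.54 in the controls. Among 10842 genes with at least 5 CPM, the profiles nearest to C1s1 were those of Islr (0.198), Dhrs3, a retinal reductase gene (0.202), and Dkk3 (0.205). The nearest to Serping1 were Dhrs3 (0.188), Ckb, a creatine kinase gene (0.204), and Col6a2, a collagen VI chain gene (0.214). These distances describe 8 libraries in which the group difference is part of every profile. The libraries low in both genes were also low in markers of fibroblasts and pericytes and of endothelium. The summed level of the fibroblast and pericyte markers was 906, 557, 733 and 642 CPM in knockouts 1 to 4, against 279, 563, 253 and 689 CPM in controls 1 to 4. Controls 1 and 3 were lowest in this sum and in Serping1 and C1s1, and knockout 1 was highest in all 3, but control 4 lay above knockouts 2 and 4 in the sum and below both in the 2 genes. Of the 10 markers, 0 were called by edgeR, none was at 0 in all libraries and their median log2 fold change was 0.55. An unadjusted edgeR p under 0.05 was found for 3 of the 10, against 4368 of all 15000 genes tested. DESeq2 called 1 of the 10, against 3109 of 14985 genes. The summed level of the endothelial markers was 893, 784, 939 and 918 CPM in knockouts 1 to 4, against 564, 752, 322 and 768 CPM in controls 1 to 4. These sums were separate between the groups, with controls 3 and 1 lowest. Of the 10 endothelial markers 3 rose (Kdr, Tek and Ptprb) and 0 fell, none was at 0 in all libraries, and the median log2 fold change was 0.59. Podocyte markers were separate as well, at 511 to 560 CPM in the knockouts and 336 to 431 CPM in the controls, with 4 of 5 called higher. The part of these cell types in the levels of Serping1 and C1s1 was not tested.

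**Figure D3:**
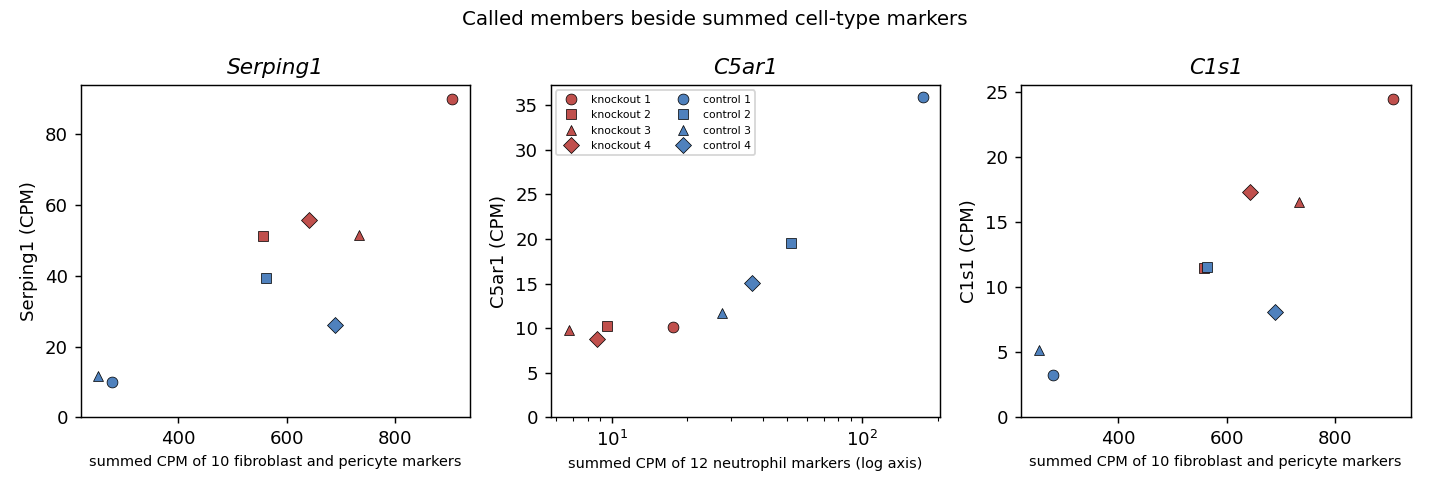
Level (CPM) of Serping1, C5ar1 and C1s1 against the summed CPM of fibroblast and pericyte markers (left and right panels) or neutrophil markers (middle panel, log axis), 1 point per library. Controls 1 and 3 are at the lower left in the outer panels, and control 1 is at the upper right in the middle panel, with 35.9 CPM of C5ar1 at 174 CPM of neutrophil markers.

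The other 2 regulators did not pass. Cfi encodes factor I, the protease that inactivates C3b and C4b. It had 5.72, 13.7, 9.56 and 8.15 CPM in knockouts 1 to 4, against 5.06, 8.26, 11.8 and 17.2 CPM in controls 1 to 4. The groups covered the same range (log2 fold change -0.18, SE 0.37, edgeR FDR-adjusted p = 0.781), and the direction turned without control 4 (0.15). Cd55 encodes decay-accelerating factor, a membrane protein that takes apart the enzymes that cleave C3. Its levels were 4.68, 5.27, 4.43 and 8.00 CPM in knockouts 1 to 4, against 12.8, 7.07, 6.99 and 6.38 CPM in controls 1 to 4. Knockouts 1 to 3 lay below all controls and knockout 4 lay above all controls but control 1 (log2 fold change -0.57, SE 0.28, edgeR FDR-adjusted p = 0.212). Its copy Cd55b had 1 count in all 8 libraries together.

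C5ar1, the receptor through which the fragment C5a attracts and activates neutrophils and macrophages, fell. Its levels were 10.1, 10.2, 9.79 and 8.83 CPM in knockouts 1 to 4, against 35.9, 19.5, 11.7 and 15.1 CPM in controls 1 to 4. The knockouts were close to each other, all below the lowest control, and the controls differed more widely among themselves, with control 1 highest. Mean levels were 9.73 ± 0.63 CPM and 20.5 ± 10.7 CPM (SD, n = 4 each), which gave a log2 fold change of -1.08 (SE 0.30, edgeR FDR-adjusted p = 0.0436). The call was kept without control 3 or control 4 (edgeR FDR-adjusted p = 0.0260 and 0.0450) and lost when any other single library was left out, with adjusted p from 0.0502 without control 1 to 0.116 without knockout 4. Without control 1 its log2 fold change was -0.66. The call was also lost with library totals in place of TMM (edgeR FDR-adjusted p = 0.0566) and in limma voom (adjusted p = 0.0818), and over all alternatives it was made in 9 of 20. The profiles nearest to C5ar1 were those of Procr, the protein C receptor gene (root mean square 0.178), Ccl2, which encodes a monocyte chemoattractant (0.180), and Tgfbi, a secreted matrix protein gene (0.182). Tgfbi also fell, with a log2 fold change of -1.11 (edgeR FDR-adjusted p = 0.0166), while Ccl2 and Procr did not pass (-0.89 and -1.02, edgeR FDR-adjusted p = 0.0887 and 0.0943).

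Neutrophil markers, like C5ar1, were lower in the knockouts. Their summed level was 17.5, 9.53, 6.71 and 8.74 CPM in knockouts 1 to 4, against 174, 51.8, 27.6 and 36.4 CPM in controls 1 to 4. The controls ranked in the same order in this sum as in C5ar1, from control 1 down to control 3. The knockouts did not, with knockout 1 highest in the sum and knockout 2 highest in C5ar1 (10.2 CPM). Of 12 listed neutrophil genes 7 were tested, of which 6 fell and 0 rose, and Elane was at 0 in all libraries. Macrophage markers, a list that includes the complement genes C1qa, C1qb and C1qc, had summed levels of 303 to 460 CPM in the knockouts and 363 to 481 CPM in the controls. This sum mixes genes that moved in opposite directions. Of the 13 genes 1 rose (Mertk) and 2 fell (Cd14 and Ccr2). Csf1r was higher in every knockout than in any control and did not pass (log2 fold change 0.60, SE 0.18, edgeR FDR-adjusted p = 0.0546). Cd68 did not pass either, in the opposite direction and with overlapping groups (log2 fold change -0.58, SE 0.17, edgeR FDR-adjusted p = 0.0534). The part of either cell type in the C5ar1 level was not tested.

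The rest of the pathway was taken from a list of 53 further genes in 5 classes, of which 37 were tested. There, 2 rose and 3 fell, or 5.41% and 8.11% of the genes tested, close to the shares of all genes, and the median log2 fold change was 0.29. In the classical and lectin class 0 of 12 were called by edgeR. An unadjusted edgeR p under 0.05 was found for 1 of the 12, against 4368 of all 15000 genes tested. DESeq2 called 0, against 3109 of 14985 genes. The most abundant genes of this class in the knockouts were those of the C1q chains, which recognise bound antibody and are made by macrophages. C1qa stood at 62.1 ± 19.8 CPM in the knockouts and 50.9 ± 18.5 CPM in the controls, C1qb at 50.4 ± 9.05 and 44.3 ± 14.3 CPM, and C1qc at 41.5 ± 7.76 and 33.4 ± 14.1 CPM (SD, n = 4 each). In the controls C2 (37.6 CPM) lay above C1qc. The log2 fold changes of these 3 C1q genes were 0.29, 0.18 and 0.31 (edgeR FDR-adjusted p = 0.551, 0.636 and 0.501), and their groups overlapped.

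In the terminal pathway, which builds the membrane pore, C7 rose. It had 7.81, 3.91, 7.56 and 6.99 CPM in knockouts 1 to 4, against 1.18, 3.07, 1.63 and 2.59 CPM in controls 1 to 4. The groups were separate, with a log2 fold change of 1.63 (SE 0.34, edgeR FDR-adjusted p = 0.0146), and the call was kept in all 8 fits that left out 1 library and lost without control 1 and knockout 3 together (edgeR FDR-adjusted p = 0.0529). C8a and C8g, which encode chains of C8, had log2 fold changes of 0.74 and 0.32 (edgeR FDR-adjusted p = 0.277 and 0.488). Hc, which encodes C5, C6, C8b and C9 were too low to be tested, with at most 11 counts in any library.

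Of 12 other regulators tested, 1 rose and 2 fell, or 8.33% and 16.7%, against 6.45% and 6.28% of all genes. An unadjusted edgeR p under 0.05 was found for 7 of the 12, against 4368 of all 15000 genes tested. DESeq2 called 7, against 3109 of 14985 genes. Susd4, which encodes a membrane inhibitor of complement, had 12.8, 12.8, 8.43 and 9.19 CPM in knockouts 1 to 4, against 4.38, 7.51, 6.07 and 4.50 CPM in controls 1 to 4. Its groups were separate (log2 fold change 0.94, SE 0.24, edgeR FDR-adjusted p = 0.0284), and the call was kept without control 2 (0.0171) or knockout 3 (0.0391). It was lost when any other single library was left out, with edgeR FDR-adjusted p from 0.0528 without control 1 to 0.0812 without knockout 2. Clu encodes clusterin, which blocks insertion of the pore and is also a marker of injured tubules. It had 705, 752, 840 and 871 CPM in knockouts 1 to 4, against 3440, 1320, 2670 and 1640 CPM in controls 1 to 4. The groups were far apart, with a log2 fold change of -1.52 (SE 0.28, edgeR FDR-adjusted p = 0.00808). Of 15 injured tubule markers, Clu among them, 12 fell and 0 rose, none was at 0, and their part in the Clu level was not tested. Cpb2, which encodes a carboxypeptidase that inactivates C3a and C5a, had 0.608 to 1.78 CPM in the knockouts and 3.93 to 8.26 CPM in the controls (log2 fold change -1.97, SE 0.38, edgeR FDR-adjusted p = 0.00972). Clu and Cpb2 were called under each of the 20 alternatives. Cpn1 (carboxypeptidase N), Thbd (thrombomodulin) and Cr1l (the membrane inhibitor Crry) were the most abundant of the uncalled genes, with log2 fold changes of 0.15, -0.51 and -0.05, of which Cpn1 turned without control 1 and Cr1l without knockout 4.

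Of 8 other receptors tested, 1 fell, or 12.5%, against 6.28% of all genes. An unadjusted edgeR p under 0.05 was found for 3 of the 8, against 4368 of all 15000 genes tested. DESeq2 called 2, against 3109 of 14985 genes. Itgam, which encodes CD11b, a chain of the receptor for cleaved C3b on neutrophils and macrophages, had 6.12, 6.66, 7.48 and 5.16 CPM in knockouts 1 to 4, against 41.4, 12.8, 12 and 9.72 CPM in controls 1 to 4. As with C5ar1, the groups were separate and control 1 was far above the rest. The log2 fold change was -1.58 (SE 0.43, edgeR FDR-adjusted p = 0.0384), and -0.86 without control 1, where the adjusted p was 0.0205. The call was lost without any 1 knockout (edgeR FDR-adjusted p = 0.0759 to 0.109) and in limma voom (adjusted p = 0.0807). In the neutrophil marker sum controls 1 and 2 also lay above controls 3 and 4, but there control 4 was above control 3, unlike in Itgam. Itgb2, which encodes the partner chain CD18, C1qbp, whose product binds C1q, and Cd93 had log2 fold changes of -0.52, -0.27 and -0.01 (edgeR FDR-adjusted p = 0.313, 0.150 and 0.979), and the sign of Cd93 turned with scaling by library totals (0.01).

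In the alternative pathway, besides Cfb, neither of the 2 listed genes was called by edgeR. An unadjusted edgeR p under 0.05 was found for 1 of the 2, against 4368 of all 15000 genes tested. DESeq2 called 0, against 3109 of 14985 genes. Cfp, which encodes properdin, the stabiliser of the C3-cleaving enzyme, had 9.86, 7.18, 5.27 and 7.41 CPM in knockouts 1 to 4, against 18.8, 17.4, 7.64 and 9.20 CPM in controls 1 to 4 (log2 fold change -0.84, SE 0.31, edgeR FDR-adjusted p = 0.107). Cfd encodes factor D, or adipsin, the protease that cleaves factor B and an abundant product of fat cells. It had 0.144, 74.2, 0.0564 and 5.04 CPM in knockouts 1 to 4, against 14.9, 100, 27.7 and 15.2 CPM in controls 1 to 4. Its spread within the groups exceeded any difference between them (log2 fold change -0.99, SE 1.39, edgeR FDR-adjusted p = 0.683), with values from -4.46 without knockout 2 to 0.05 without control 2. The fat cell gene Adipoq stood at 8.60 CPM in knockout 2 and at most 0.326 CPM in the other knockouts, against 8.39 CPM in control 2 and 1.17 to 4.69 CPM in the other controls. It is 1 of 10 fat cell genes listed, which summed to 274, 338, 224 and 205 CPM in knockouts 1 to 4. In controls 1 to 4 the sum was 239, 464, 314 and 275 CPM. Not all of the 10 set knockout 2 apart. Fabp4 had 107 and 109 CPM in knockouts 1 and 2, and Pnpla2 had 143 and 135 CPM. Knockout 2 was also the highest library in C3 and the highest knockout in Cfb and Cfi, and without it the log2 fold change of C3 was 0.83 (edgeR FDR-adjusted p = 0.173). Control 2, close to knockout 2 in Adipoq, lay below controls 3 and 4 in C3, Cfb and Cfi. The part of fat tissue in these levels was not tested.

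**Figure D4:**
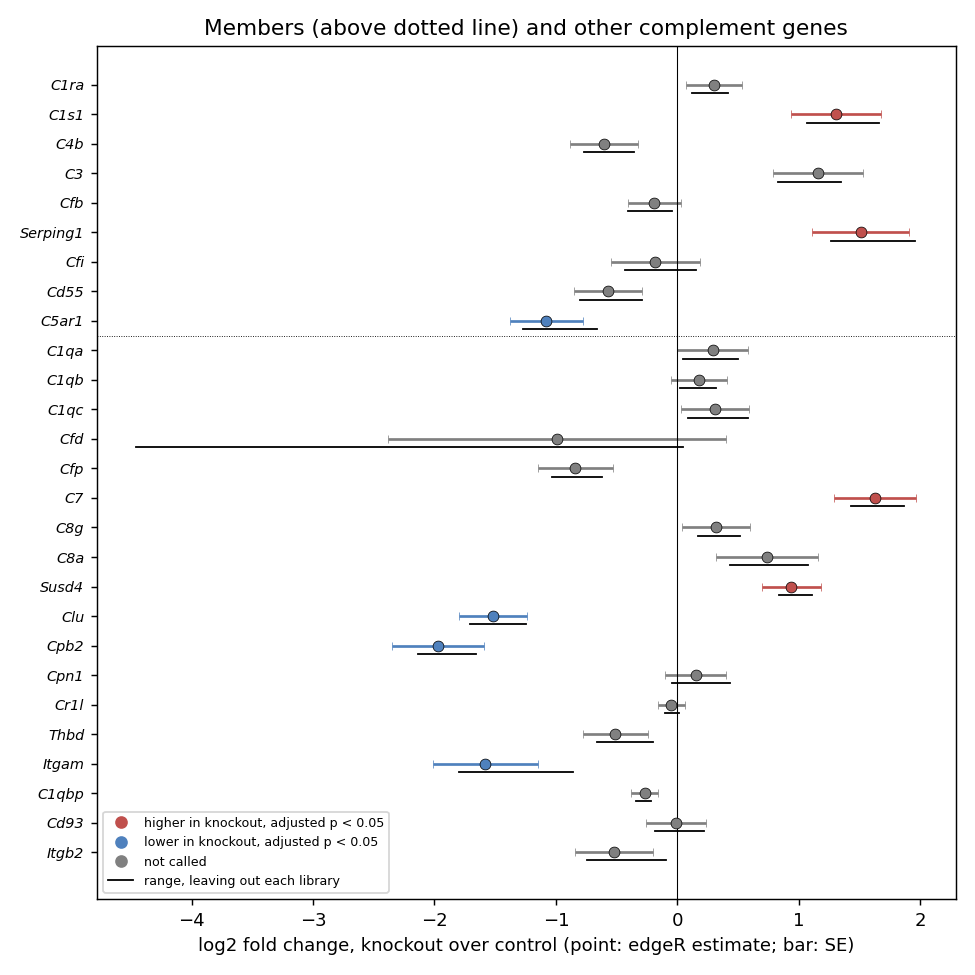
Log2 fold change, knockout over control, of the 9 genes (above the dotted line) and of the other complement genes named, with edgeR estimates as points, SE as bars, and the range over the 8 fits that left out 1 library as black lines below. Red and blue points passed an adjusted p under 0.05; Cfd has the widest range, from -4.46 to 0.05.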

How the data were processed

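Kidney RNA of 8 libraries was made from 1.3 µg of total RNA each after collagenase digestion of the tissue, with a kit that does not mark strand, per the labels' protocols. The authors deposited 1 table of raw counts per gene symbol with a gene length column. Per the submitters' processing notes the tools were HISAT2 2.2.1, Salmon 1.10.2, Trim Galore 0.6.2 and FastQC, with build mm39; which of them made the counts is not given in the sources used here. Of the values from 1 to 20, 68.7% to 70.9% per library were even, as when both mates of a pair are counted, so low counts may stand for fewer fragments. Genes were taken by symbol, since 13 of 18423 known identifiers in the table's second identifier column (0.0706%) matched the symbol of their line. The deposited gene lengths, in bases, served for TPM alone and were taken as those of the symbol on the same line. The TPM levels and per-length ratios rest on that reading.

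Counts were filtered by group (filterByExpr, minimum count 10), scaled by TMM and fitted with the quasi-likelihood model of edgeR 4.0.16 (R 4.3.3), knockout against control, all 8 libraries, without covariates. FDR adjustment was Benjamini-Hochberg over 15000 genes (called under 0.05). Standard errors (SE) come from the F statistic. CPM use TMM factors; log2 CPM use a prior count of 2. DESeq2 1.42.0 and limma 3.58.1 voom were alternatives, with other scalings, filters and libraries left out. Named genes were the 9 listed, called genes of the other complement lists with the 3 most abundant uncalled genes of each, and the 3 nearest profiles of each called member (at least 5 CPM, predicted genes left out). The members and lists were chosen with earlier results of these data known; the fat cell genes, copies and ratios were added after the values were seen. Same-numbered libraries of the 2 groups did not deviate together (correlations of -0.198 to 0.153). Counts carry no molecular identifiers, so depth covers counting error only. Replicates of a group differed by more than sampling noise.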

Additional observations from a re-analysis of the deposited data

Results flagged for a closer look

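In 6 of 54 groups of 4 libraries, 1 library lay far from the other 3, measured as its gap to the nearest of them over the whole range, past Dixon's critical value; chance gives about 1 in 20 such groups. Control 1 stood apart for Cd55, with 12.8 CPM where the others had 6.38 to 7.07 CPM (0.893), and for Itgam, with 41.4 CPM against 9.72 to 12.8 CPM (0.902). Knockout 1 stood apart for Serping1, with 89.8 CPM against 51.3 to 55.7 CPM in the other knockouts (0.885). For Cfd it was knockout 2, with 74.2 CPM against 0.0564 to 5.04 CPM in the other knockouts (0.933), and control 2, with 100 CPM where the others had 14.9 to 27.7 CPM (0.851). Control 3 stood apart for Cpb2, with 8.26 CPM against 3.93 to 4.41 CPM (0.890).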

How the results depend on the processing

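The 9 genes kept their direction in 179 of 180 combinations of gene and alternative; Cfi turned to 0.15 without control 4. Their 3 calls became 0 with the replicate block and without control 1 and knockout 3 together, and 0 to 2 when 1 library was left out. With library totals alone they were 3 higher and 0 lower, C3 in place of C5ar1, and in voom 2 higher and 0 lower. The titles give both groups the same numbers, but nothing says that they pair the libraries, and no library correlated best with its own number. The count over all genes, 1909, was 865 with the replicate block, 3109 in DESeq2, 1045 without control 1 and knockout 3 together, 1008 without control 2 and knockout 2 together (chosen after seeing the data), and 907 to 1984 without 1 library. The 5 calls among other complement genes became 10 in DESeq2, 2 with the replicate block, 3 without control 1 and knockout 3 together, and 3 to 6 without 1 library. Among uncalled genes some log2 fold changes changed sign. Cd93 was 0.01 with library totals, 0.02 in voom and with the replicate block, 0.21 with quality weights, 0.12 without control 1 and knockout 3, 0.08 without control 2 and knockout 2, and -0.18 to 0.22 without 1 library. Without 1 library Cfd ran from -4.46 to 0.05, Cfi from -0.43 to 0.15, Cpn1 from -0.04 to 0.43 and Cr1l from -0.10 to 0.01; without control 1 and knockout 3, Cpn1 was -0.11 and Cr1l 0.01. The causes were not tested. With the replicate block C7, Susd4, Itgam and the 3 called members lost their calls. With 4 libraries a group, adjusted p-values near 0.05 such as those of the members crossed the threshold when single libraries were left out. Fewer libraries also weaken the test. Without knockout 4 the log2 fold change of C1s1 was 1.32, against 1.31 with all 8 libraries, and its call was lost.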
